A study of Homo sapiens with 6 samples.

Results

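AP-1 is a family of transcription factors that bind DNA as dimers of basic leucine zipper (bZIP) proteins. The genes described here are 10 of that family, chosen by name: the Fos genes FOS, FOSB, FOSL1 and FOSL2, the Jun genes JUN, JUNB and JUND, and ATF3, BATF3 and MAFF, which encode related bZIP proteins. All 10 symbols matched a row among the 57659 genes of the count files. RNA was sequenced from IMR90 cells, a primary human fetal lung fibroblast line grown in medium with fetal bovine serum. The control group is 3 libraries of cells with a short hairpin RNA against luciferase, and the knockdown group is 3 libraries of cells with a hairpin against macroH2A1, a histone H2A variant that carries a macro domain. Both groups therefore express a hairpin, and no hairpin sequence, vector or time after delivery is given in the sources used here. The series calls its samples biological replicates.

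Jun proteins pair with themselves or with Fos proteins, whereas Fos proteins need a partner to bind DNA stably. The dimers read the sequence TGACTCA, known as the TPA response element (TRE), and dimers with ATF proteins favour the longer TGACGTCA, the cyclic AMP response element (CRE). In fibroblasts FOS is the textbook immediate-early gene, switched on for a short time by serum or growth factors through ERK signalling and serum response factor, while FOSL1 is a slower gene that sustained ERK signalling keeps on and whose protein ERK phosphorylation stabilizes.

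The promoters of FOS, JUN, JUNB and FOSL2 are shown first, because control and knockdown lay apart for these genes. Whether the elements relate to those differences was not tested. RefSeq promoter windows of 300 bases on GRCh38.p14, from 250 bases before to 50 after the transcription start, were matched by symbol for 8 of the 10 members, all but FOSL1 and BATF3. The counts were made on hg19, so these positions serve only to locate the printed sequence. Capitals mark matches of the motifs named next for each gene, and matches of the GC box are left in lower case. In FOS and JUNB these are TGACG, the first bases of the CRE, and TATAAA. In FOSL2 they are TGACG, also read on the other strand as CGTCA, and the TRE TGACTCA. In JUN they are TTACCTCA and TGACATCA, the distal and proximal sites known from work on this promoter to bind Jun with ATF proteins, and TGACG.
FOS promoter, chr14:75278578-75278877, plus strand: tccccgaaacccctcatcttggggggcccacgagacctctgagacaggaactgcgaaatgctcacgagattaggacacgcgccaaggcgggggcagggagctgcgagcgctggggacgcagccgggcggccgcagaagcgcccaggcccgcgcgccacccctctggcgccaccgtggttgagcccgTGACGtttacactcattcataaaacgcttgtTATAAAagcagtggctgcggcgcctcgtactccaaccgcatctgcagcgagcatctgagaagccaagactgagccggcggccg
JUN promoter, chr1:58783998-58784297, minus strand: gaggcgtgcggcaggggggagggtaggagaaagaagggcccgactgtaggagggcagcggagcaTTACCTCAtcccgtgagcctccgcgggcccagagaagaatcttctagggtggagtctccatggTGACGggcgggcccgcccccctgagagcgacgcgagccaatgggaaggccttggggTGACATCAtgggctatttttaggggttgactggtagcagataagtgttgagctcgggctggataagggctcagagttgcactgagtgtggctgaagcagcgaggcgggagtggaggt
JUNB promoter, chr19:12791236-12791535, plus strand: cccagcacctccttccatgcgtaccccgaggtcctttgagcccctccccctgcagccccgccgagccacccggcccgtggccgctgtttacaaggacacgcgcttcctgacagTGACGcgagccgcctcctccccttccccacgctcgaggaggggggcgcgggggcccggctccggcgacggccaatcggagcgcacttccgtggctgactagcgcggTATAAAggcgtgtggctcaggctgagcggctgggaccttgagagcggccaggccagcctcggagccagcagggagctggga
FOSL2 promoter, chr2:28392608-28392907, plus strand: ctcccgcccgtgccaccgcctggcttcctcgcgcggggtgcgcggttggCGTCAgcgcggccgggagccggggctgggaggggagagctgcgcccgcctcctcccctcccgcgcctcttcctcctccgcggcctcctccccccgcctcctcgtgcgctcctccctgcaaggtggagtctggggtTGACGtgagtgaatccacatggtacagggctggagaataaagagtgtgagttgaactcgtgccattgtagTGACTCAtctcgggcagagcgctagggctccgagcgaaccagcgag

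Searched on both strands, TGACG was found in 7 of the 8 members with a window and in 24.6% of all 35116 windows of that length, and every TGACGTCA holds it as well. The full CRE TGACGTCA was in JUND and MAFF and in 1.85% of all windows. The TRE TGACTCA was in FOSL2 alone of these members, starting 5 bases into the transcript, and in 4.95% of all windows. TGACATCA was in JUN, starting at -67 from the transcription start, and in 1 of the ATF3 windows (2.61% of all), and TTACCTCA was in JUN, starting at -186 (0.715% of all). TATAAA, searched on the gene's own strand only, was in FOS, FOSB, JUNB and an ATF3 window, against 7.33% of all. GGGCGG, the GC box, was in 7 members and 45.0% of windows. No window of these members held a CArG box, the element that serum response factor reads (1.29% of all windows). Bases further upstream than these windows were not searched, so this does not show that any member lacks such an element. All the motif matches given here are matches of letters and not evidence of binding.

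**Figure D1:**
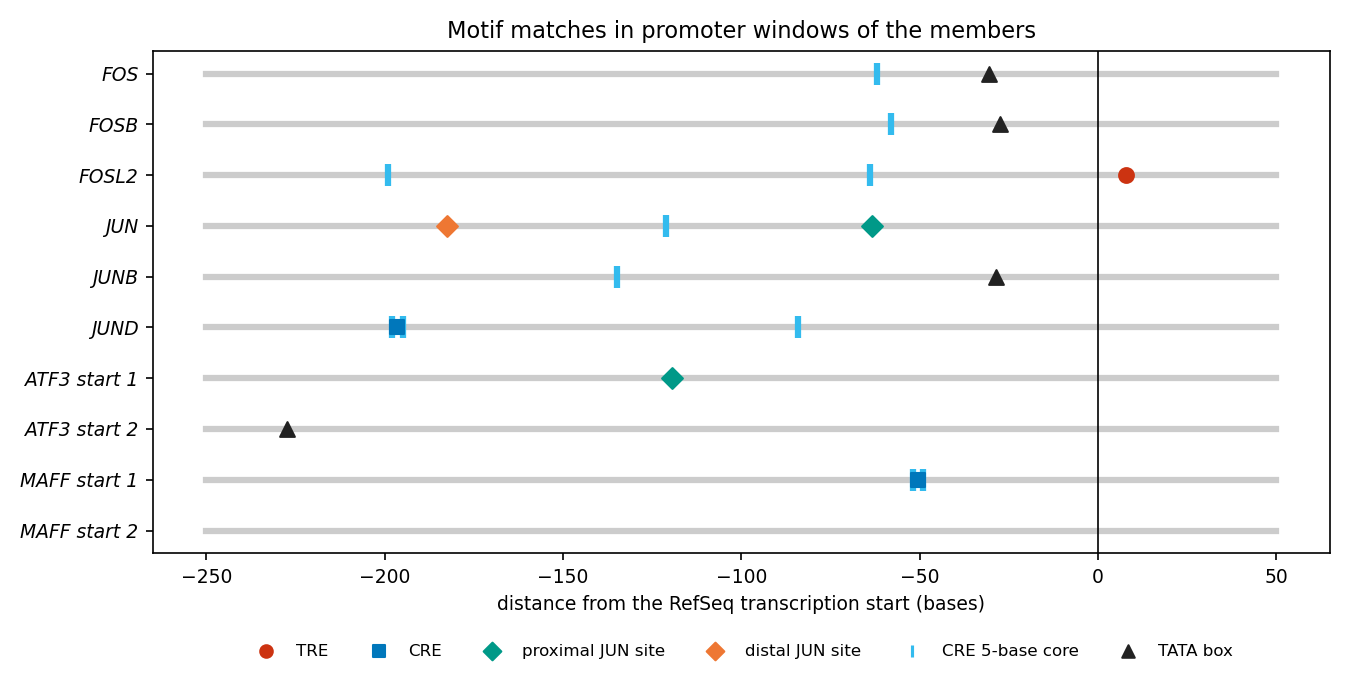
Positions of motif matches in the RefSeq promoter windows of 8 members (rows), against distance from the transcription start in bases. ATF3 and MAFF have 2 annotated starts each. FOS, FOSB and JUNB carry a TATA box close to the start, JUN has its proximal and distal sites, and the TRE of FOSL2 lies just past the start.

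Depth was 3741087 to 6421605 gene counts per library, so that 3 counts are 0.467 to 0.802 per 1000000 gene counts before scaling. Levels below are CPM, the count per 1000000 of the scaled library size. The targeted gene MACROH2A1 had 92.1, 88.0 and 84.8 CPM in the control and 39.0, 43.7 and 39.9 CPM in the knockdown libraries, which leaves 46.3% (edgeR adjusted p = 0.000917). Fibroblast markers were well expressed, with a summed level of 7505 to 8563 CPM in the control and 12000 to 12743 CPM in the knockdown libraries, and 5 of the 10 tested were called higher, beside 3.9% of all genes tested. The 10 epithelial markers summed to at most 1.85 CPM. Of 7 endothelial markers, KDR and TEK rose, and the list summed to 61.1 to 65.4 CPM in the control and 137 to 145 CPM in the knockdown libraries. PECAM1 had no count in any library, and CDH5 and CLDN5 had 1 count each. Neither CD4 nor CD68, the 2 of 8 blood cell markers with enough reads, was called, with the list at 13.8 to 18.8 CPM in the control and 13.7 to 16.5 CPM in the knockdown libraries, and none of 5 smooth muscle markers was called (180 to 207 and 157 to 187 CPM). Reads outside annotated features made up 8.34% to 9.43% of a control library and 10.6% to 11.3% of a knockdown library, and reads without a unique alignment 67.6% to 68.8% and 64.4% to 66.6%. The part of these differences in the results was not tested.

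The question asked of the members was whether their transcripts differ when macroH2A1 is depleted. FOS rose, FOSL1 and JUN fell, and 5 other members were tested and not called. That is 3 of 8 tested members called, beside 8.21% of all 13445 genes tested; 1 rose, beside 3.9%, and 2 fell, beside 4.31%. FOSB and BATF3 had too few counts to be tested. The calls use edgeR's quasi-likelihood test, with p-values adjusted over all genes by the Benjamini-Hochberg method and a threshold of 0.05. CPM ranges of control and knockdown did not overlap for 5 of the 8 tested members, with the knockdown above for FOS, JUNB and FOSL2 and below for FOSL1 and JUN, beside 30.4% of all genes tested (14.5% above and 15.9% below). Their median log2 fold change was 0.11, against 0.01 for all genes tested. In bulk RNA, more transcript per cell and more cells that carry it cannot be told apart.

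**Figure D2:**
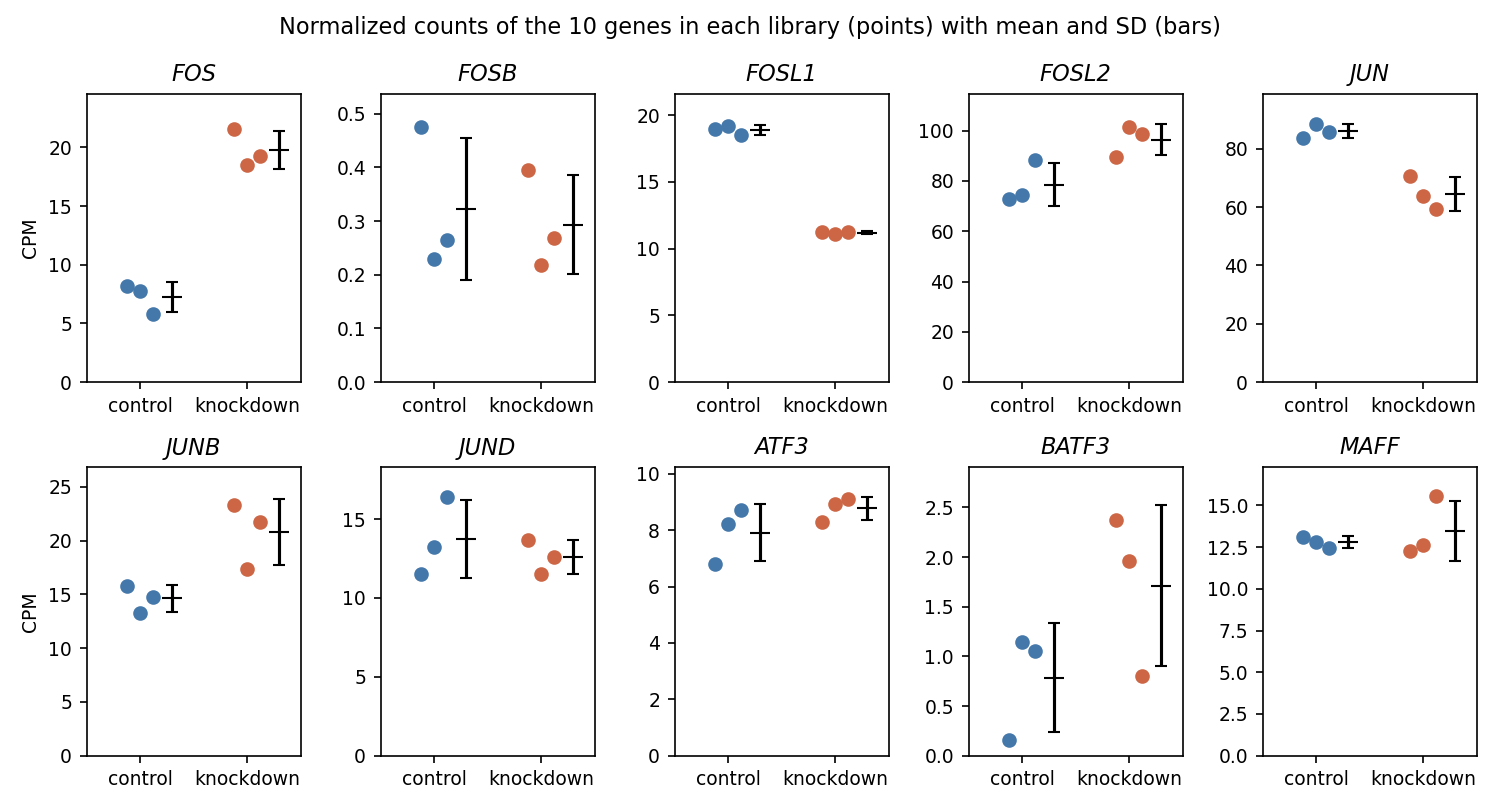
Normalized counts (CPM, linear axes from 0) of the 10 genes in the 3 control and 3 knockdown libraries; points are libraries and bars show mean and SD. FOS, JUNB and FOSL2 lie higher in every knockdown library than in any control, FOSL1 and JUN lie lower, and the other genes overlap.

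Among the Fos genes, FOS encodes c-Fos, the member with the strongest activation domains, and stood at low counts. The control libraries held 52, 34 and 22 reads and the knockdown libraries 109, 85 and 72. Normalized, these were 8.23, 7.77 and 5.81 CPM in the control and 21.6, 18.5 and 19.3 CPM in the knockdown libraries. The lowest knockdown library was more than 2 times the highest control library, and the groups did not overlap. FOS rose from 7.27 ± 1.28 to 19.8 ± 1.60 CPM (SD, n = 3 per group), a 2.69-fold change with a 95% interval of 2.05 to 3.52 (log2 1.43, SE 0.16, edgeR adjusted p = 0.00449). All 16 alternative settings called FOS, at 1.30 to 1.54 on the log2 scale. In the authors' deposited table its ratio of knockdown to control was 2.74 with an adjusted p of 9.37e-09.

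FOSL1 encodes Fra-1, which lacks the activation domain of c-Fos. It moved the other way. The control libraries held 120, 84 and 70 reads and the knockdown libraries 57, 51 and 42. Normalized, FOSL1 had 19.0, 19.2 and 18.5 CPM in the control, against 11.3, 11.1 and 11.2 CPM in the knockdown libraries. Every knockdown library lay under every control library. The mean fell from 18.9 ± 0.361 to 11.2 ± 0.100 CPM (SD, n = 3 per group), 59.3% of its starting level (log2 -0.75, SE 0.10, edgeR adjusted p = 0.00864). The exact counting interval of the ratio of its summed counts, 0.482 to 0.725, was wider than the edgeR interval, 0.501 to 0.703. The SE of 0.10 is therefore too small to cover counting error, and DESeq2 gave an SE of 0.228. The log2 fold change of FOSL1 stayed between -0.77 and -0.74 in 16 alternative settings, and 15 of them called it. The authors' deposited table gives FOSL1 a log2 ratio of -0.74 with an adjusted p of 0.00484.

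FOSL2 encodes Fra-2, a further Fos protein without that activation domain, and had the most reads of the Fos genes. Its values were 72.9, 74.3 and 88.3 CPM in the control, against 89.4, 101 and 98.6 CPM in the knockdown libraries. The groups stood apart by little, since control replicate 3 and knockdown replicate 1 were nearly level. The 1.23-fold difference (95% interval 1.04 to 1.45) was not called (log2 0.30, SE 0.10, edgeR adjusted p = 0.124). It was called when only genes of the authors' table were tested (edgeR adjusted p = 0.0172), and the authors' deposited table itself gives an adjusted p of 0.0141.

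FOSB, like FOS an immediate-early gene, was close to undetected. The control libraries held 3, 1 and 1 reads and the knockdown libraries 2, 1 and 1. The ratio of the summed counts, knockdown to control, was 0.865 with an exact 95% counting interval of 0.172 to 4.02. At this depth a difference inside that range could not be told from none. When every gene with at least 1 count was tested, FOSB was not called (edgeR adjusted p = 0.977).

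Among the Jun genes, JUN encodes c-Jun, a strong activator that also binds its own promoter at the sites printed above. It was the most abundant member in reads per length. Its values were 83.7, 88.5 and 85.9 CPM in the control, against 70.6, 63.7 and 59.2 CPM in the knockdown libraries. All 3 knockdown libraries lay under the controls, with a wider spread among them. JUN fell from 86.0 ± 2.40 to 64.5 ± 5.75 CPM (SD, n = 3 per group), which leaves 75.0% (log2 -0.41, SE 0.08, edgeR adjusted p = 0.0323). The direction held in 16 alternative settings, but the call was lost in 7, among them those without control replicate 1, 2 or 3 or knockdown replicate 2 or 3 (edgeR adjusted p from 0.0847 to 0.0999). The authors' deposited table gives JUN a log2 ratio of -0.40 with an adjusted p of 0.00242.

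JUNB encodes a Jun protein that activates weakly and can oppose c-Jun. It had 15.8, 13.3 and 14.8 CPM in the control, against 23.3, 17.4 and 21.7 CPM in the knockdown libraries. The knockdown libraries were all higher, knockdown replicate 2 only by little. The means were 14.6 ± 1.29 and 20.8 ± 3.07 CPM (SD, n = 3 per group), a 1.42-fold difference with a 95% interval of 1.12 to 1.80 that was not called (edgeR adjusted p = 0.0834). It was called when only genes of the authors' table were tested (edgeR adjusted p = 0.0169), whereas the authors' deposited table gives 0.0627. Exons of JUNB overlap those of HOOK2 on the opposite strand in GENCODE 29, and the strand setting of the counting is not given in the sources used here. HOOK2 had 35 reads in the control and 41 in the knockdown libraries, against 214 and 279 for JUNB.

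JUND, the Jun gene that is expressed in resting cells, overlapped between groups. Its values were 11.5, 13.3 and 16.4 CPM in the control, against 13.6, 11.5 and 12.6 CPM in the knockdown libraries. Control replicate 3 was the highest of the 6 libraries. The log2 fold change was -0.11 with a 95% interval of -0.51 to 0.29 (edgeR adjusted p = 0.734).

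The remaining members pair with Jun proteins or with other bZIP factors. ATF3, a stress-induced factor, had 6.80, 8.23 and 8.72 CPM in the control and 8.31, 8.92 and 9.11 CPM in the knockdown libraries, so the groups overlapped. Its fold was 1.11 with a 95% interval of 0.846 to 1.47 (edgeR adjusted p = 0.627). MAFF, a small Maf protein without an activation domain, had 13.1, 12.8 and 12.4 CPM in the control and 12.3, 12.6 and 15.5 CPM in the knockdown libraries. Only knockdown replicate 3 stood out, and the fold was 1.05 with an interval of 0.833 to 1.32 (edgeR adjusted p = 0.879). BATF3, which is best known from dendritic cells, had 1, 5 and 4 reads in the control and 12, 9 and 3 reads in the knockdown libraries. The groups overlapped, and the ratio of summed counts was 2.60 with an exact 95% counting interval of 1.20 to 6.08 that covers counting error only. Where less strict filters let BATF3 be tested, it was not called (edgeR or DESeq2 adjusted p from 0.151 to 0.526 in 4 settings).

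**Figure D3:**
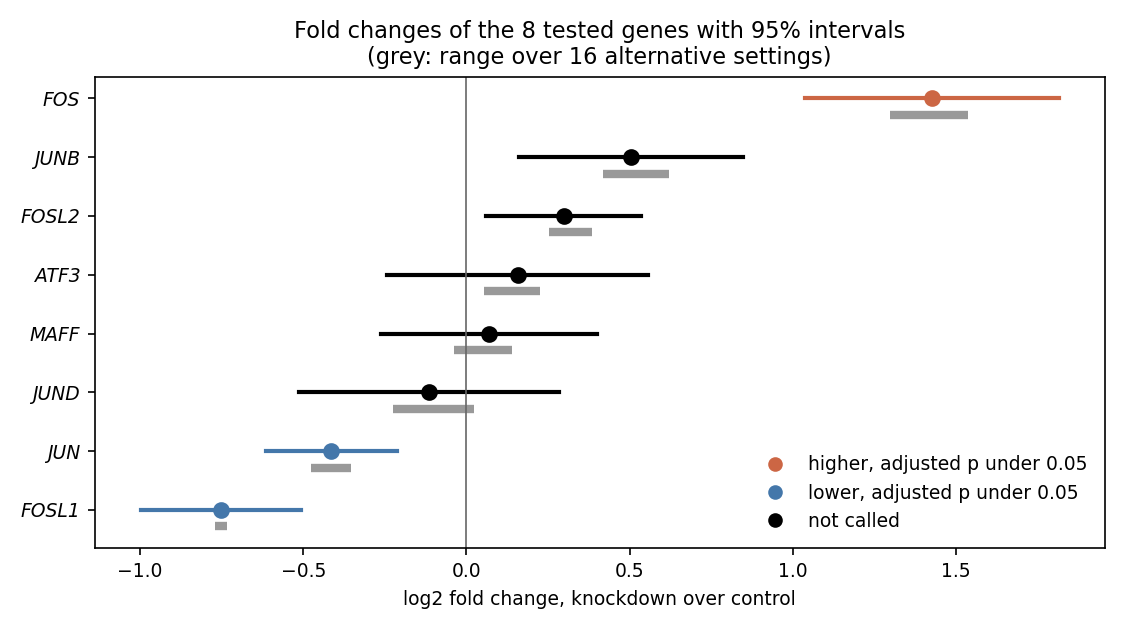
Log2 fold changes, knockdown over control, of the 8 tested members with 95% intervals (points and lines) and the range over 16 alternative settings (grey bars). FOS lies at 1.43 and FOSL1 at -0.75. The edgeR intervals of FOS, FOSL1, JUN, JUNB and FOSL2 exclude 0, though JUNB and FOSL2 were not called. The intervals of JUND, MAFF and ATF3 span 0.

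Levels can be compared between genes only per length, so CPM were divided by the summed exon length of each gene in GENCODE 29 (CPM per kilobase). In the control JUN led at 24.3 ± 0.678, followed by FOSL2 at 10.2 to 12.3, FOSL1 at 10.0 ± 0.191, JUNB at 8.04 ± 0.708 and JUND at 7.37 ± 1.32 CPM per kilobase (SD, n = 3). MAFF at 2.28 ± 0.0632, FOS at 2.25 ± 0.396 and ATF3 at 1.96 ± 0.247 came next, then BATF3 at 0.290 ± 0.201 and FOSB at 0.0581 ± 0.0239. The ranges of JUNB and JUND overlapped, as did those of FOS with MAFF and with ATF3. In the knockdown the order was JUN at 18.2 ± 1.62, FOSL2 at 13.5 ± 0.873, JUNB at 11.4 ± 1.69, JUND at 6.76 ± 0.569, FOS at 6.11 ± 0.492 and FOSL1 at 5.94 ± 0.0529 CPM per kilobase. There JUNB overlapped FOSL2, and JUND, FOS and FOSL1 came close, with FOS overlapping both and FOSL1 under JUND in every library. MAFF at 2.40 ± 0.320 and ATF3 at 2.17 ± 0.103 overlapped each other and were followed by BATF3 at 0.631 ± 0.300 and FOSB at 0.0529 ± 0.0165. By this length FOSL1 went from rank 3 to rank 6 and FOS from rank 7 to rank 5. By the longest coding transcript of each gene, a length chosen after the data were seen, FOSL1 had the same ranks and FOS went from rank 8 to rank 4, and FOS at 8.57 to 9.99 then lay above FOSL1 at 6.64 to 6.75 CPM per kilobase in every knockdown library.

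The summed level of the 10 members, not divided by length, overlapped between groups. It was 232 to 252 CPM in the control and 247 to 253 CPM in the knockdown libraries. The shares of FOS and FOSL1 in the Fos family, and of JUN and JUNB in the Jun family, did not overlap. FOS made up 7.49% to 11.1% of the Fos family's level per length in the control and 22.1% to 26.4% in the knockdown libraries. FOSL1 made up 40.9% to 44.2% and 22.8% to 23.7%. FOSL2 was the largest share in every library, at 44.5% to 51.4% and 49.6% to 54.9%, and those ranges overlap. In the Jun family JUN made up 58.9% to 63.4% in the control and 47.2% to 53.3% in the knockdown libraries, JUNB 18.5% to 22.6% and 28.3% to 33.7%, and JUND 16.1% to 21.4% and 18.3% to 19.1%. The Fos family totals did not overlap, at 22.9 to 24.0 CPM per kilobase in the control and 25.2 to 25.8 in the knockdown libraries. Those of the Jun family overlapped, at 38.5 to 41.2 and 33.7 to 40.1 CPM per kilobase.

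**Figure D4:**
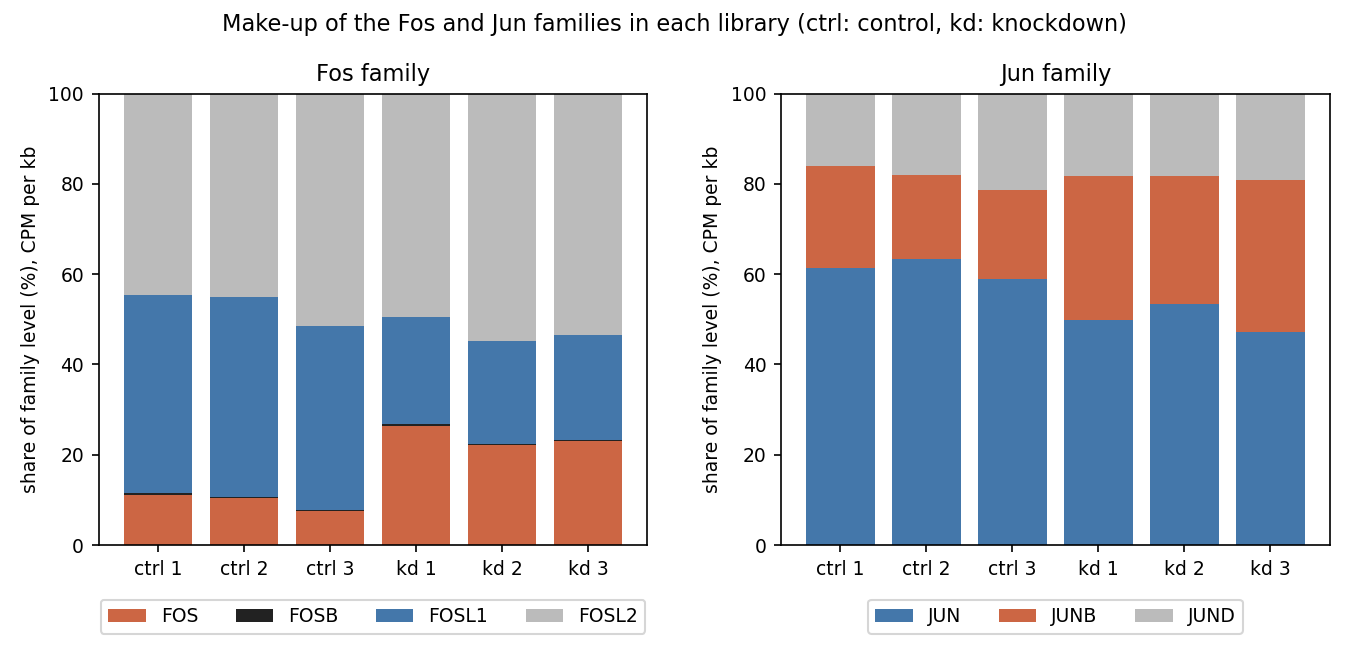
Share of each gene in the summed level per length (percent of CPM per kilobase) of the Fos family (left) and the Jun family (right) in each library. FOS takes a larger and FOSL1 a smaller share in all 3 knockdown libraries, and JUNB gains on JUN.

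The ratio of FOS to FOSL1 per length was 0.253, 0.236 and 0.183 in the control, against 1.11, 0.971 and 0.999 in the knockdown libraries. FOSL1 was thus several times the level of FOS in each control library, and they were near parity in each knockdown library. JUNB over JUN went from 0.368, 0.291 and 0.335 to 0.643, 0.531 and 0.713. The size of a ratio between genes depends on the lengths used: with the longest coding transcript of each gene the mean ratio of FOS to FOSL1 of the control libraries was 0.297 ± 0.0481 and that of the knockdown libraries 1.36 ± 0.101 (SD, n = 3). The change between groups does not depend on that choice. These ratios restate the members' own differences and carry no further test.

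The genes whose pattern over the 6 libraries was most like that of a called member were found by the root mean square difference of log2 CPM, each gene set relative to its control mean, among 9002 protein-coding genes with a mean of at least 5 CPM. For FOS these were SNED1, SPRY1, a feedback inhibitor of receptor tyrosine kinase signalling, and EREG, a ligand of the EGF receptor, with differences of 0.11, 0.12 and 0.14. SPRY1 went from 3.18 ± 0.470 to 10.0 ± 1.35 CPM and EREG from 3.21 ± 0.517 to 9.81 ± 2.19 CPM (SD, n = 3 per group). EREG lost its call in 2 of the 16 alternative settings, among them without control replicate 1 (edgeR adjusted p = 0.0537). For FOSL1 they were FRMD6, NDFIP2, an adaptor of ubiquitin ligases, and FGF2, a fibroblast growth factor, with differences of 0.03, 0.05 and 0.06. FRMD6 went from 270 ± 8.77 to 164 ± 4.96 CPM and FGF2 from 117 ± 2.76 to 70.9 ± 5.26 CPM. For JUN they were ADAMTS6, SNU13 and MGST1, with differences of 0.03, 0.03 and 0.04; their calls were lost in 8, 12 and 9 of the 16 alternative settings. The measure mostly reflects the size of the group difference, so many genes with the same fold lie close.

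Messages of immediate-early genes are known to be short-lived, and AU-rich elements with the pentamer ATTTA are a known cause. Counted over its whole length, the longest coding transcript of FOS in GENCODE 29 holds 5 copies of ATTTA, or 2.32 per 1000 bases. That is the highest density of the 10 members. FOSL1 holds 1 (0.599 per 1000), JUN 3 (0.847 per 1000), and the median of 19659 protein-coding genes was 0.938 per 1000. Of those genes, 50.4% hold 3 or more copies. Whether the copies relate to the members' differences was not tested. The first stretch of 30 bases of the FOS transcript with the most copies holds 2 that overlap at its end, printed in capitals.
FOS transcript window: aaacgttttattgtgtttttaATTTATTTA
Among 9 tested proteins that bind such elements, ZFP36L2, which promotes decay, and TIA1, a translational silencer, rose and none fell. Of all genes tested, 3.9% were called higher and 4.31% lower. ZFP36L2 went from 230 reads in all 3 control libraries to 295 in the knockdown libraries, 1.37-fold once normalized (edgeR adjusted p = 0.0369) and TIA1 from 72.6 ± 2.90 to 93.9 ± 7.84 CPM (edgeR adjusted p = 0.0451; SD, n = 3 per group). ZFP36, the founding member that targets FOS itself, had 3.36 ± 0.166 and 4.99 ± 0.161 CPM and was not called (edgeR adjusted p = 0.169). With any 1 library left out, the count of calls in this list was 0, or 1 without knockdown replicate 2. ZFP36L2 and TIA1 each lost the call in 9 of the 16 alternative settings. For ZFP36L2 these included DESeq2 (DESeq2 adjusted p = 0.196), which kept TIA1 called.

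The shares of other bZIP factors and of upstream genes that were called lay near the 8.21% of all genes tested (3.9% higher and 4.31% lower), and are no result about those lists. Of 30 other bZIP factors tested, out of 41 listed, 2 were called (6.67%): CEBPD, a C/EBP factor, rose 1.45-fold (edgeR adjusted p = 0.0294) and NFE2L3, a relative of NRF2 that binds with small Maf proteins, fell from 36.2 ± 1.20 to 17.7 ± 2.55 CPM (SD, n = 3 per group, edgeR adjusted p = 0.00371). Of 27 tested kinases and serum response factor partners upstream of AP-1, 3 rose (11.1%) and none fell, with a list median of 0.04 on the log2 scale. They were RPS6KA2, an ERK-activated kinase, from 74.6 ± 2.33 to 112 ± 14.4 CPM, MAP2K6, a p38 kinase kinase, at 2.89-fold from only 23 control reads, and MAPK10, a JNK gene, at 1.68-fold (edgeR adjusted p from 0.0210 to 0.0435). With any 1 library left out none of the 3 kept its call, except RPS6KA2 without knockdown replicate 1, and without knockdown replicate 2 the 1 gene of that list called was lower. CEBPD lost its call without any 1 library other than knockdown replicate 3.

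Most called genes among the other immediate-early genes were higher, like FOS. Of 23 tested, beside 8.21% of all genes called, 8 rose, 1 fell and 14 were not called, with a median log2 fold change of 0.34 against 0.01 for all genes tested. SGK1, a serum-induced kinase, rose from 65.5 ± 6.05 to 157 ± 6.05 CPM (edgeR adjusted p = 0.000917), and NR4A1, an orphan nuclear receptor, from 5.85 ± 0.558 to 18.1 ± 2.63 CPM (edgeR adjusted p = 0.00317; SD, n = 3 per group). GEM, a small GTPase, rose from 17.0 ± 1.17 to 25.5 ± 0.599 CPM and PHLDA1 1.39-fold. CCN2, EGR1, EGR3 and SOCS3, named after their values were seen, were the others that rose. IER3 fell, to 68.0% of the control level (edgeR adjusted p = 0.0164). With 1 library left out the count of 9 calls dropped to 2 without control replicate 1 or knockdown replicate 1, 3 without control replicate 2 or 3, 4 without knockdown replicate 3 and 5 without knockdown replicate 2. The fibroblast marker sum, given above, was also higher in every knockdown library, and its part in this count was not tested.

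The called genes among those long known as AP-1 targets were all lower. Of 23 tested, out of 30 listed, 10 fell, none rose and 13 were not called, with a median log2 fold change of -0.35. The share of all tested genes called lower was 4.31%. CCND1, cyclin D1, fell from 805 ± 23.6 to 440 ± 8.03 CPM (SD, n = 3 per group, edgeR adjusted p = 0.00144). MMP1, the interstitial collagenase whose promoter holds a classical TRE, fell from 44.8 ± 1.04 to 21.6 ± 2.18 CPM, and MT2A, the metallothionein gene in which AP-1 was first studied, from 27.3 ± 1.64 to 15.1 ± 0.363 CPM (edgeR adjusted p = 0.00175 and 0.00362). CCND1, MMP1 and MT2A kept their calls in 16 alternative settings. Also called were KRT18, EZR, CD44, LIF, HMGA1 and ITGA2, named after their values were seen, with log2 fold changes from -1.59 for KRT18 to -0.30 for ITGA2. The count was 4 without control replicate 1, 5 without knockdown replicate 3, 6 without knockdown replicate 2 and 7 without any other library. MMP1, MT2A and KRT18 were known from earlier results on the same data when the list was written, so the list is not independent evidence of a direction.

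**Figure D5:**
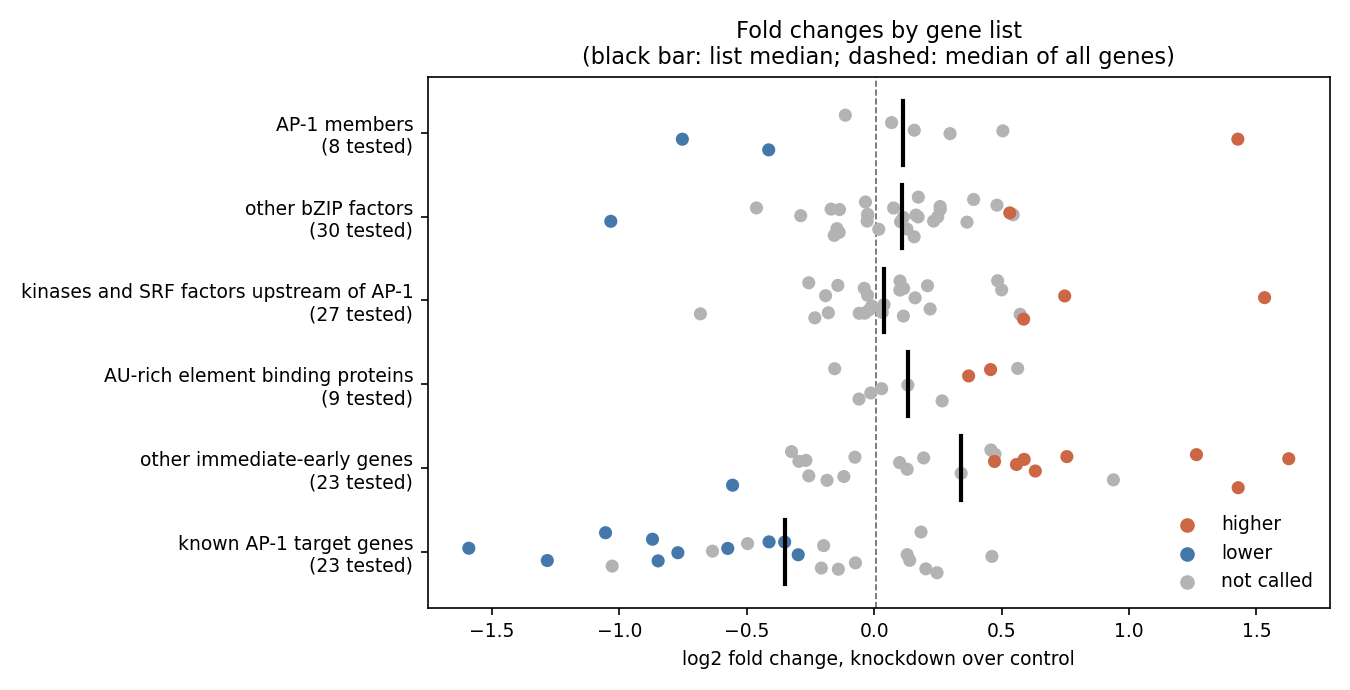
Log2 fold changes, knockdown over control, of the tested genes of 6 lists (points; orange higher, blue lower, grey not called), with the list median (black bar) and the median of all genes (dashed line). The immediate-early genes lie mostly to the right and the known AP-1 targets mostly to the left, while the AP-1 members spread to both sides.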

How the data were processed

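For each of 6 libraries the authors deposited a table of raw counts by Ensembl gene, and the submitters' processing notes name CASAVA 1.7, GSNAP, HTSeq and the build hg19; the sources used here give no counting strand setting or annotation. Libraries were made, per the labels' protocols, from total RNA without its ribosomal fraction and with dUTP in the second strand, which was then degraded, so the reads keep their strand. Lines that name no gene were left out (genes held 11.9% to 13.7% of the listed reads). The authors also deposited a comparison of protein-coding genes (DESeq 1.10.1 in those notes), whose columns per the file headers are mean signal, ratio, log2 ratio and p-value. Its ratio is knockdown over control, as checked against the counts.

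Counts were filtered (filterByExpr, minimum count 10), scaled by TMM and tested with edgeR 4.0.16 in R 4.3.3; DESeq2 1.42.0 and limma 3.58.1 (voom) were alternatives, beside other scalings, filters, a replicate block and leaving out each library. CPM are counts per 1000000 of the TMM-scaled library size; log2 CPM used a prior count of 2. Groups and replicate numbers come from the titles. Replicates of 1 group differed beyond sampling noise (chi-square over its degrees of freedom 25.2 to 37.7). Intervals of counts cover counting error only. The SEs and intervals given for log2 and fold changes are from edgeR and may be too small. DESeq2 gave a larger SE for each tested member, 0.254 for FOS and 0.228 for FOSL1. Counts were also simulated with 200 genes changed, and 13133 genes passed the filter. Of the changed genes that passed, edgeR recovered 47.0% of log2 changes of 1 and 97.2% of 2, but 1.92% of 0.5. Fewer genes were changed there than the 1104 called in the data, so these percentages may not carry over. Symbols and lengths are from GENCODE 29 and the supplied name table (47399 genes matched), promoters from RefSeq. The rule for named genes takes all members, MACROH2A1, up to 4 called genes per list and direction, and the 3 genes most like each called member. Outside it, marker genes, genes overlapping a member, ZFP36 and further called immediate-early and target genes were named after their values were seen; 1 gene of the AP-1 target list, counted with its list, is not reported here. Members, lists and rules were chosen with earlier results of these data known.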

Additional observations from a re-analysis of the deposited data

How the results depend on the processing

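Among all genes the count of calls was 1104; it was 2060 when only genes of the authors' table were tested and 427 to 564 with 1 library left out. Among the members it was 3; it was 5 with only the genes of that table, where JUNB and FOSL2 were added, and 2 to 3 with 1 library left out. Same-numbered libraries of the 2 groups did not deviate together (correlations from -0.17 to -0.02, and 0 of 6 libraries correlated best with their own number). With 3 libraries per group this cannot exclude that same-numbered libraries were handled together. With a replicate block 416 genes and 1 member, FOS, were called, with an edgeR adjusted p of 0.0510 for FOSL1 and 0.0852 for JUN. JUN also lost its call when every gene with 1 count was tested (edgeR adjusted p = 0.0539). With 1 library left out the log2 change of JUND ran from -0.226 to 0.0230, positive without control replicate 3, and that of MAFF from -0.0392 to 0.140, negative without knockdown replicate 3; neither was called in any setting. The FOS to FOSL1 ratio moved with gene length, as given with its values. The cause of the other changes was not tested, beyond fewer libraries or fewer genes in a fit. Depth limits FOSB and BATF3. Changes of 0.5 on the log2 scale were mostly missed in simulated data, in which fewer genes changed than were called here.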

Other observations

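ERCC1, a DNA repair gene that overlaps FOSB on the opposite strand in GENCODE 29 without sharing exons, had 117, 89 and 69 reads in the control libraries and 3355, 75 and 69 in knockdown replicates 1, 2 and 3. FOSB itself had 2 reads in knockdown replicate 1. ERCC1 was looked at after the values of FOSB were seen, it was not called (edgeR adjusted p = 0.183), and why 1 library stands apart was not tested.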
